A study of Mus musculus with 2 samples.

Results

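The collagen genes were followed in mouse gastrocnemius, the large calf muscle, as the set of all protein-coding genes whose symbol is Col, a type number, the letter a and a chain number. The rule gave 44 genes among 21901 protein-coding genes and 55536 genes in all. They were grouped by structure into 11 fibrillar collagens, 6 basement membrane collagens of type IV, 6 collagens of type VI, 8 fibril-associated collagens, 5 collagens of junctions and cell membranes with Col22a1, 2 multiplexins and 6 short-chain, anchoring and other collagens. The rule read names and annotation, not measured values.

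Both libraries came from total RNA of gastrocnemius tissue from female B6CASTF1/J mice at the age of 36 days, a first-generation hybrid of a C57BL/6 and a castaneus parent, with 300 ng of RNA and synthetic spike-in RNA in each. They form 1 group with no treatment and no other genotype, and are called replicate 1 and replicate 2 after their labels. The labels number them as biological replicates with separate tissue samples but give 1 shared donor entry. Whether they came from separate animals was not stated, so the spread between them may not be a spread between animals. The gene tables held 37735687 and 40656175 expected counts. With 2 libraries in 1 group there is no comparison of conditions and no p-value.

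The tissue carried its labelled markers in both libraries: the 8 muscle fibre markers were all detected and Acta1, skeletal actin, stood at 26410 and 21414 TPM, the number of a gene's transcripts per fixed total of all transcripts after correction for length. Muscle fibre markers summed to 108296 and 80035 TPM, with 6 of the 8 lower in replicate 2. Markers of other cells present in muscle were unequal. Slow fibre markers summed to 15.5 TPM in replicate 1 and 2615 TPM in replicate 2, fat cell markers to 370.7 and 114 TPM, Schwann cell and nerve sheath markers to 129 and 39.5 TPM, and tendon markers to 72.8 and 106 TPM. Fibroblast markers summed to 437 and 358 TPM, with Gsn alone at 235 and 163 TPM and 6 of the 10 higher in replicate 2 (median log2 ratio 0.20). Endothelial markers summed to 75.3 and 85.3 TPM, pericyte and smooth muscle markers to 170.5 and 161 TPM, and macrophage markers to 31.5 and 33.2 TPM. Satellite cell markers summed to 7.79 and 8.98 TPM, and neuromuscular junction markers to 68.7 and 60.7 TPM. Cartilage and bone markers summed to 5.37 and 10.5 TPM, with Matn1, Snorc, Bglap and Ibsp at 0 in both libraries. Skin markers summed to 6.94 and 4.82 TPM, with Krt15, Lor and Dsg3 at 0 in both, and Trp63 gave most of that sum at 6.21 and 3.42 TPM.

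Collagens are the structural proteins of the extracellular matrix, and each molecule is a rope of 3 chains wound into a triple helix. The helix needs a glycine, the smallest amino acid, at the first place of each triplet of residues, which gives the Gly-X-Y repeat. In skeletal muscle, fibrillar collagens made by fibroblasts form the connective tissue sheaths and tendon, type IV collagen forms the sheet around each fibre and capillary, type VI collagen links that sheet to the surrounding matrix, and specialised collagens stand where fibre meets tendon or nerve. Mutations in type VI collagen genes cause muscular dystrophy in people.

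The repeat is shown first, because it is what makes these genes one family and because its interruptions set the fibrillar and type IV chains apart. In the stretches below each glycine codon, GGN, is in capitals, and the 8 Gly-X-Y triplets come from the middle of the longest unbroken repeat of the chain, 5′ to 3′, as annotated in the GENCODE M21 coding sequences.
Col1a1, codons 663 to 686: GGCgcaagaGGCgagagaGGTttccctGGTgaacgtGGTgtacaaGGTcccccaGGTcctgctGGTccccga
Col3a1, codons 668 to 691: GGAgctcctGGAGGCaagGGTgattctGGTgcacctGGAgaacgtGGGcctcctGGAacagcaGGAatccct
Col6a3, codons 2219 to 2242: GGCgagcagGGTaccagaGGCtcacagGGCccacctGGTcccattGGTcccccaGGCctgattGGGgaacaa
Col8a1, codons 433 to 456: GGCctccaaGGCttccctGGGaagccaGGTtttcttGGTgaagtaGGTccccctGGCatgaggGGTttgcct
Col22a1, codons 1263 to 1286: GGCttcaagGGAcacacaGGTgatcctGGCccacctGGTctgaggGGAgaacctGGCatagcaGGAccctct
In the fibrillar collagen Col3a1 the second triplet also has glycine in its middle place, so 2 capital codons stand together. The type IV chains break the pattern. The next lines give the first interruption that lies between long repeats, of 10 codons in Col4a1 and of 12 codons in Col4a2, with 3 triplets on each side, and capitals again mark every glycine codon.
Col4a1, codons 154 to 181: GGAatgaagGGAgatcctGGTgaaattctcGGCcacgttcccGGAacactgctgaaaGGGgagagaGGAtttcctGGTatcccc
Col4a2, codons 163 to 192: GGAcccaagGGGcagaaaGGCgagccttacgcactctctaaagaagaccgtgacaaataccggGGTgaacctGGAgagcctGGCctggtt

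Counted over the longest coding sequence of every gene, in runs of at least 5 triplets, the 11 fibrillar genes had 2 to 3 runs, of which the longest held 216 to 344 triplets (median 338). The 2 fibrillar genes at the low end were Col24a1 with 216 and Col27a1 with 217, each with a further run of 93. The 6 type IV genes had 22 to 27 runs, with a longest run of 39 to 66 triplets, although 74.9% to 78.8% of their codons lay in runs. Type VI genes had a short helix within a long protein: the longest run held 87 triplets in Col6a1 and Col6a2 and 45 in Col6a3, where runs covered 10.05% of 3284 codons. Col22a1 had a longest run of 113 triplets, the same number as Col9a1, Col9a2 and Col9a3. Both multiplexins, Col15a1 and Col18a1, had 30. Outside the fibrillar and type IV classes the numbers overlapped, with 2 to 21 runs in fibril-associated genes and 2 to 20 in short-chain and other genes. These are properties of the annotation, not measurements of the libraries.

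**Figure D1:**
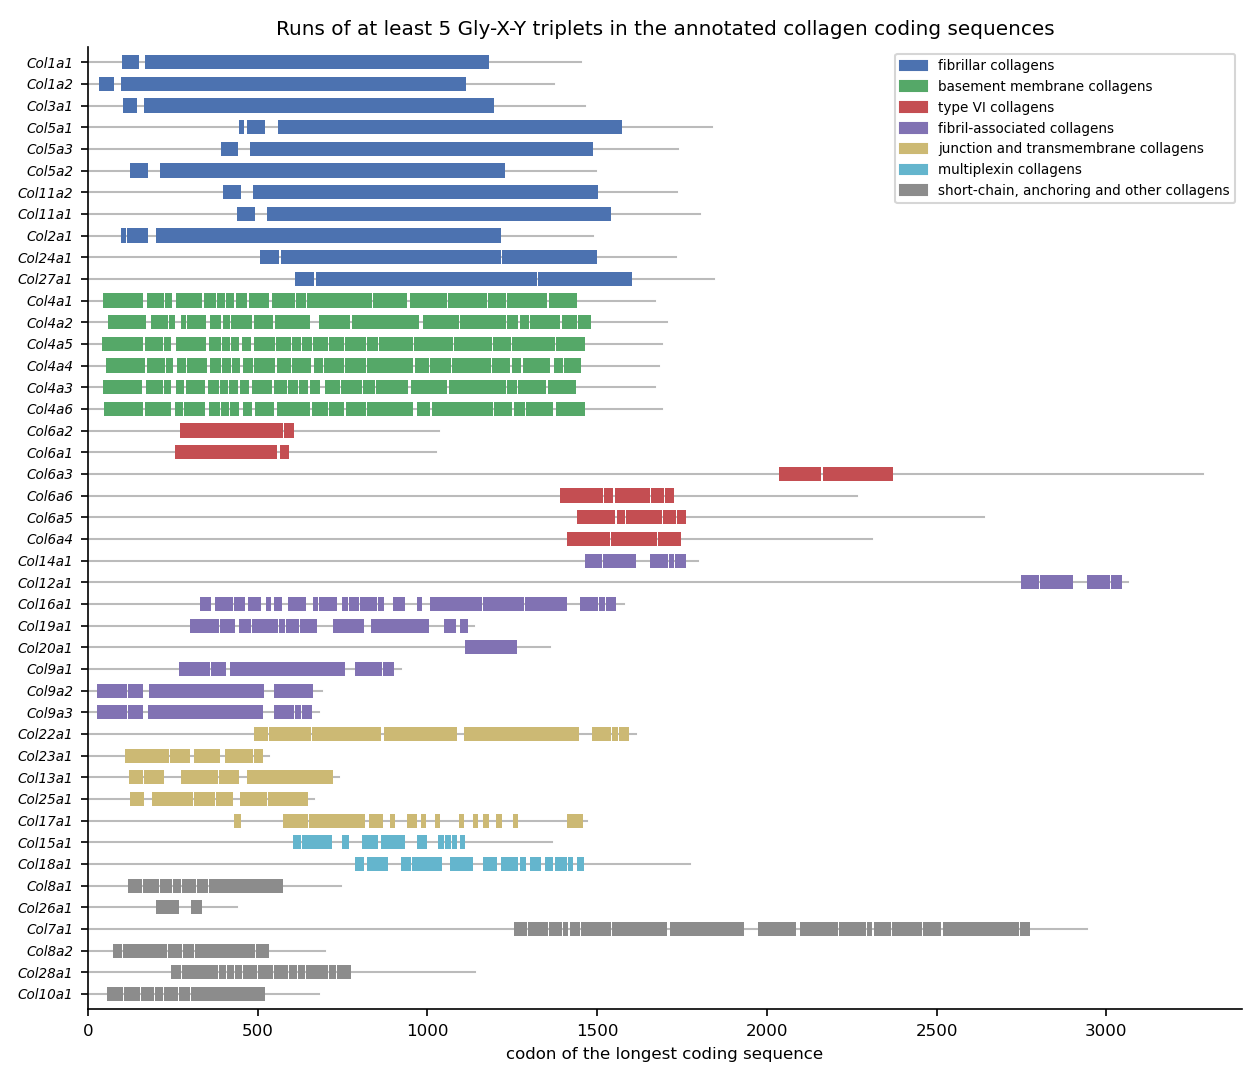
Runs of at least 5 Gly-X-Y triplets (coloured blocks) along the longest annotated coding sequence (grey line, in codons) of each of the 44 collagen genes, coloured by class and ordered by class and mean TPM. Fibrillar chains show 1 long block of 216 to 344 triplets, with a second of 93 in Col24a1 and Col27a1. Type IV chains show 22 to 27 short blocks, and type VI chains a block that is small beside the rest of the protein.

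Of the 44 collagen genes, 22 (50%) were detected, defined as at least 1 TPM in both libraries, where 45.4% of all protein-coding genes were. Another 4 passed in 1 library only, Col8a1 in replicate 2 and Col26a1, Col7a1 and Col19a1 in replicate 1, and 18 passed in neither. The 22 were 9 fibrillar genes, 3 type IV genes, 4 type VI genes, 3 fibril-associated genes, Col22a1 and both multiplexins. Collagen genes together held 776.6 TPM in replicate 1 and 808.5 TPM in replicate 2, which is 0.0777% and 0.0809% of all TPM. As a share of counts they held 0.331% and 0.339%, since their transcripts are long. The total differed little between libraries whose slow fibre, fat cell and nerve markers stood far apart. In bulk tissue, fewer cells of a type and less RNA per cell cannot be told apart.

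The classes were very unequal. Fibrillar collagens held 72.3% of collagen TPM in replicate 1 and 73.5% in replicate 2 (72.9% ± 0.85, SD, n = 2). Type IV held 12.9% and 11.1%, and type VI held 9.07% and 9.74%. The multiplexins followed with 2.54% and 2.47%, and the fibril-associated collagens with 1.84% and 1.93%. Junction and membrane collagens held 0.894% and 0.665%, and the short-chain and other collagens 0.475% and 0.564%. The order of the classes was the same in both libraries. With leading transcripts only, an alternative chosen after seeing the data, the fibril-associated share was 0.934% rather than 1.89% on average.

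**Figure D2:**
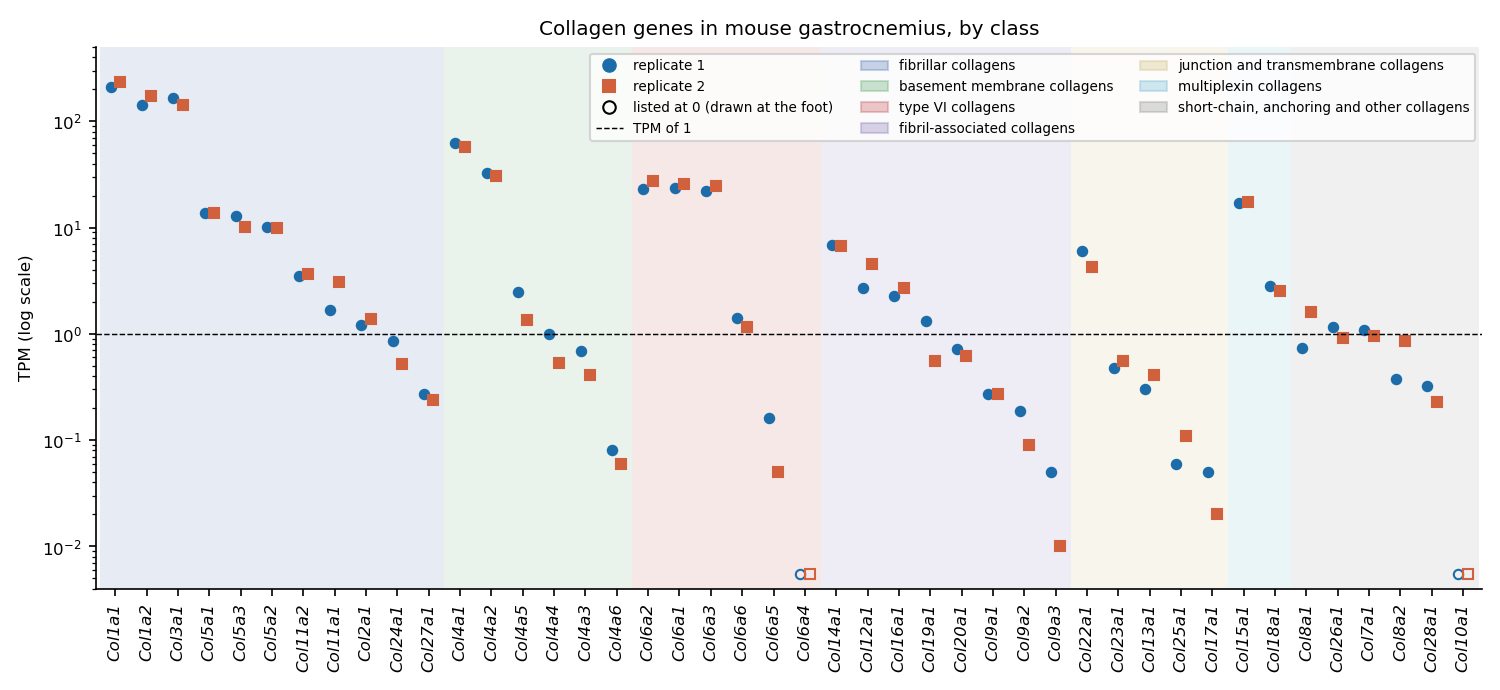
TPM of each collagen gene on a log axis, with replicate 1 as circles and replicate 2 as squares, grouped by class (shading) and ordered by mean within a class; the dashed line is 1 TPM and open symbols at the foot are genes listed at 0. Col1a1, Col1a2 and Col3a1 lie above 100 TPM in both libraries, while 18 of 44 genes lie below 1 TPM in both.

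Fibrillar collagens carried the family. Col1a1, the alpha 1 chain of type I collagen of tendon, bone and muscle sheaths (chr11:94936224-94953042, plus strand, mm10), stood at 212 and 237 TPM (224 ± 17.6, SD, n = 2). It was the 203rd and 191st highest protein-coding gene. Col1a2, its partner chain (chr6:4504814-4541544, plus strand), stood at 141 and 171 TPM. Both type I genes were higher in replicate 2. Col3a1, the single chain of type III collagen of pliable tissue (chr1:45311538-45349706, plus strand), stood at 164 and 143 TPM, higher in replicate 1. The order of Col1a2 and Col3a1 thus differed between the libraries, and their means did not differ beyond their spread (156 ± 21.1 and 154 ± 14.6 TPM). These 3 genes held 66.6% and 68.2% of all collagen TPM.

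Type V chains, which sit inside type I fibrils and set their width, came next. Col5a1 stood at 13.7 and 13.9 TPM, Col5a2 at 10.1 and 9.96 TPM, and Col5a3, a less widespread chain, at 12.9 and 10.2 TPM. Col5a3 was higher in replicate 1, and the other two lay within 0.2 TPM of each other across libraries. Type XI chains, relatives of type V best known from cartilage, were low: Col11a2 stood at 3.52 and 3.65 TPM and Col11a1 at 1.68 and 3.11 TPM. Col11a1 was higher in replicate 2 while Col11a2 was close between libraries. Col2a1, the main collagen of cartilage, stood at 1.21 and 1.37 TPM from 148 and 139 counts. Its protein-coding transcripts held 79.2% and 58.4% of that TPM. Of the 10 cartilage and bone markers beside Col2a1 2 were detected, Comp with 165 and 289 counts and Chad with 134 and 325, and both are tendon markers too. Acan, the main cartilage proteoglycan, had 0 and 9 counts, Matn3 3 and 22, Hapln1 2 and 3 and Sp7 0 and 1, and the other 4 had none in either library. Their part in the Col2a1 value was not tested. Col24a1 at 0.85 and 0.52 TPM and Col27a1 at 0.27 and 0.24 TPM did not reach detection.

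Among type IV collagens the common network chains stood far above the rest. Col4a1 (chr8:11198423-11312826, minus strand) stood at 62.8 and 57.3 TPM and Col4a2 (chr8:11312805-11449287, plus strand) at 33.0 and 30.4 TPM. Col4a5, found in the basement membranes of kidney, lung and some other tissues, stood at 2.49 and 1.34 TPM. Col4a4 at 0.99 and 0.53 TPM and Col4a3 at 0.69 and 0.41 TPM, the partners of Col4a5 in the kidney network, stayed under 1 TPM but had 112 to 215 counts each. Col4a6 had 16 and 12 counts. All 6 were lower in replicate 2 in TPM.

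Type IV genes lie in the genome as pairs that start next to each other and point away from each other. The annotated starts of Col4a1 and Col4a2 on chromosome 8 overlap by 22 bases, those of Col4a4 and Col4a3 on chromosome 1 leave 71 bases between them, and those of Col4a6 and Col4a5 on chromosome X leave 1308. The short interval is printed because it is the whole stretch between 2 genes whose counts differed alike between the libraries (log2 ratio of -0.59 for Col4a4 and -0.63 for Col4a3).
Col4a4 to Col4a3, chr1:82586850-82586920, mm10, minus strand: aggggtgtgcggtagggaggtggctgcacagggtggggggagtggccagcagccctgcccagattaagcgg
Neither strand holds the TATA box letters TATAAA, the CAAT box or the Sp1 motif described below, so no letters are in capitals. The pairs were not alike in balance: the head-to-head partner Col4a6 was at 0.08 and 0.06 TPM beside Col4a5 at 2.49 and 1.34 TPM.

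Type VI collagen, the microfibril collagen of the muscle matrix, was even across its 3 common chains when all transcripts of a gene were summed. Col6a1 stood at 23.6 and 25.6 TPM, Col6a2 at 23.3 and 27.2 TPM, and Col6a3, the largest chain, at 21.9 and 24.8 TPM. All 3 were higher in replicate 2 in TPM, and their means of 23.4 to 25.3 TPM did not differ from each other beyond their spread. Retained-intron transcripts held 20.3% and 28.8% of the Col6a3 TPM. With leading transcripts only, Col6a3 to Col6a1 was 0.615 and 0.546. In scaled counts Col6a3 had a log2 ratio of -0.0045. Of the 3 further chains that can take the place of Col6a3, Col6a6 stood at 1.42 and 1.16 TPM, Col6a5 had 19.4 and 7.13 counts, and Col6a4 had 0 and 1 count. For Col6a4 a count of 0 in replicate 1 allows up to 3 counts, or 0.0379 TPM.

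Fibril-associated collagens have interrupted helices and coat the surface of fibrils. Col14a1, found in muscle sheaths and tendon, stood at 6.79 and 6.78 TPM. Col12a1, its near relative in tendon and muscle matrix, stood at 2.69 and 4.59 TPM, higher in replicate 2. Col16a1 stood at 2.26 and 2.72 TPM, and Col19a1 (chr1:24261890-24587472, minus strand) at 1.32 and 0.55 TPM from 171 and 74 counts, higher in replicate 1. Col20a1 stood at 0.72 and 0.62 TPM. The cartilage chains of type IX were at the bottom, Col9a1 with 28 counts in each library, Col9a2 with 7 and 5, and Col9a3 with 2 and 1.

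Col22a1, the collagen of the junction between muscle fibre and tendon (chr15:71795795-72034227, minus strand), stood at 6.05 and 4.29 TPM from 1391 and 1075 counts. It was higher in replicate 1, the library with the lower tendon markers and the higher sum of muscle fibre markers. It stood 14th among the 44 genes by mean TPM, next to Col14a1. The transmembrane collagens were all below 1 TPM. Col13a1, which is needed at the neuromuscular junction, stood at 0.30 and 0.41 TPM from 25 and 31 counts. Col23a1 stood at 0.48 and 0.55 TPM. Col25a1, which acts in the innervation of developing muscle, had 6 and 13 counts. Col17a1, a collagen of skin hemidesmosomes, had 6 and 4 counts. Of the 7 skin markers beside it, Trp63 had 463 and 247 counts, Krt10 13 and 24, Krt5 0 and 4, Krt14 0 and 1, and the other 3 had none in either library.

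The multiplexins sit in basement membranes and carry cleavable ends. Col15a1, which is prominent around muscle fibres and capillaries, stood at 16.9 and 17.5 TPM, and Col18a1, the source of endostatin, at 2.82 and 2.51 TPM. Both multiplexins were close between libraries.

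Among the short-chain and other collagens none was detected in both libraries. Col8a1 (chr16:57624258-57754737, minus strand) stood at 0.74 and 1.59 TPM from 112 and 255 counts. Col8a2 (chr4:126286793-126314330, plus strand), the other chain of type VIII collagen of vessel walls and eye, stood at 0.38 and 0.86 TPM from 49 and 117 counts. Both type VIII genes were higher in replicate 2. Col26a1 at 1.16 and 0.92 TPM and Col7a1, the anchoring fibril collagen of skin, at 1.09 and 0.96 TPM lay across the threshold. Col28a1, a collagen found around Schwann cells, had 40 and 23 counts. Col10a1, the collagen of growth plate cartilage, had 0 counts in both libraries, which allows up to 0.0324 and 0.0307 TPM.

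Because both type VIII genes differed in the same direction while lying on different chromosomes, 150 bases before each start are printed, ending 5 bases short of it, from the RefSeq promoter table (GRCm38.p6, the same assembly as mm10), 5′ to 3′ on the strand of the gene. Capitals mark GGGCGG or its reverse complement CCGCCC, where overlapping matches run together.
Col8a1, chr16:57754743-57754892, minus strand: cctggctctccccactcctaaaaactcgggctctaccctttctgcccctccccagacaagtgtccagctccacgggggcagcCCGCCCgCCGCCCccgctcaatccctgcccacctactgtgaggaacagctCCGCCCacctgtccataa
Col8a2, chr4:126286639-126286788, plus strand: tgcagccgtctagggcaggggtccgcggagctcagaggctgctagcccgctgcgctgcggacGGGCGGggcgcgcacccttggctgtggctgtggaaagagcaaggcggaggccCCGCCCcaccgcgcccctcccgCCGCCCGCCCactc
The Col8a1 stretch holds 3 matches and the Col8a2 stretch 4, and neither holds TATAAA or CCAAT. Over the RefSeq table, 35 of the 44 genes had an entry, with 38 start sites. In the 250 bases before the start, GGGCGG or its reverse complement was in 22 of these 38 windows (57.9%) and in 32.7% of 32851 windows of all genes. TATAAA (reverse complement TTTATA) was in 5 of 38 against 12.4% of all, and CCAAT (reverse complement ATTGG) in 13 of 38 against 33.8%. A match is a description of the letters and shows no binding.

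The balance between chains that are built into one molecule was read as a ratio of TPM. Protein was not measured, so a ratio of RNA away from the chain number shows no imbalance of chains. Type I collagen has 2 alpha 1 chains for each alpha 2 chain. The Col1a1 to Col1a2 ratio was 1.497 in replicate 1 (95% counting interval 1.47 to 1.52) and 1.38 in replicate 2 (1.36 to 1.40), so the libraries differed by more than counting error and both lay under 2. Type IV collagen of muscle likewise has 2 Col4a1 chains for each Col4a2 chain, and that ratio was 1.91 and 1.89 (1.90 ± 0.0145, SD, n = 2). In type VI collagen, with 1 chain of each kind, Col6a1 to Col6a2 was 1.01 and 0.940, and Col6a3 to Col6a1 was 0.929 and 0.970. In type V, Col5a1 to Col5a2 was 1.35 and 1.39, and Col5a3 to Col5a2 was 1.27 and 1.03. Col8a1 to Col8a2 was 1.95 and 1.85. Col11a1 to Col11a2 was 0.477 and 0.852, and Col3a1 to Col1a1, the type III to type I ratio, was 0.775 and 0.606. Col4a3 to Col4a4 was 0.697 and 0.774, and Col6a6 to Col6a3 was 0.0647 and 0.0468. Ratios with few counts in one chain were loose: Col4a5 to Col4a6 was 31.1 (18.99 to 54.96) and 22.3 (13.3 to 46.2), and Col9a2 to Col9a3 rested on 2 and 1 counts of Col9a3.

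Part of this balance depended on which transcripts were summed. With only the leading transcript of each gene, the protein-coding transcript with the most counts, the Col4a1 to Col4a2 ratio was 1.52 and 1.39 rather than 1.91 and 1.89. Summed over all transcripts of the table made directly from the reads, called reads-based here, it was 2.76 and 2.17, and there the leading transcripts gave 1.54 and 1.45. Leading transcripts thus put the type IV ratio near the type I ratio, which was 1.59 and 1.47 from the alignments and 1.54 and 1.43 from the reads-based values. Col6a3 to Col6a1 fell from 0.949 ± 0.0290 to 0.580 ± 0.0489 with leading transcripts. Col11a1 to Col11a2 was 1.00 and 0.831 with leading transcripts and 1.15 and 0.986 with leading reads-based ones. There the order of the libraries was the reverse of that in gene TPM. Col4a3 to Col4a4 was 1.27 and 1.47 over all reads-based transcripts, above 1, and 0.940 and 0.911 with leading transcripts. Col6a1 to Col6a2 stayed between 0.922 and 1.08 under all 4 quantifications, and Col8a1 to Col8a2 between 1.75 and 1.95. Col1a1 to Col1a2 was under 2 in both libraries under all 4.

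**Figure D3:**
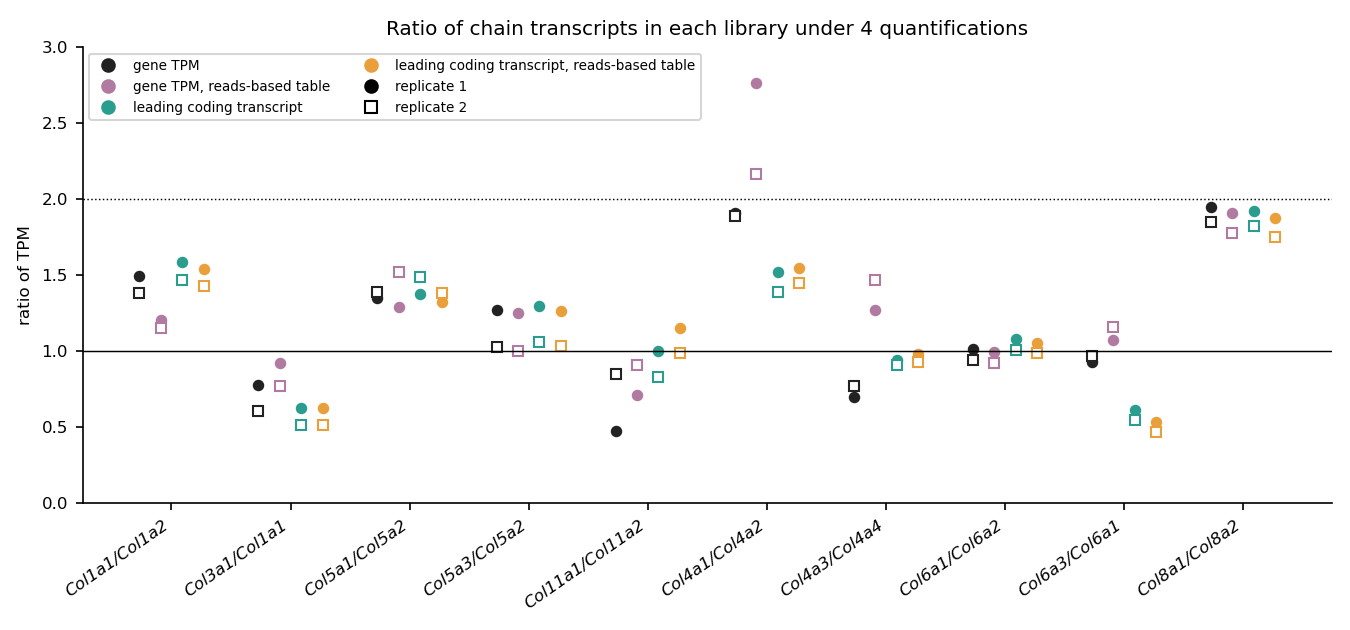
Ratio of TPM between collagen chains in replicate 1 (filled circles) and replicate 2 (open squares), from all transcripts of a gene and from the leading protein-coding transcript, each in the alignment-based and the reads-based tables; lines mark 1 and 2. The Col4a1 to Col4a2 ratio runs from 1.39 to 2.76 with the quantification, while Col6a1 to Col6a2 stays between 0.922 and 1.08.

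In the transcript tables, short transcripts held few counts but, per length, a sizeable TPM. In Col4a1, the transcript Col4a1-203 of 545 bases held 1.69% and 2.33% of the counts but 19.7% and 25.7% of the TPM. In Col6a3, Col6a3-206, a retained-intron transcript of 646 bases, held 1.599% and 2.68% of the counts and 18.8% and 27.5% of the TPM. In Col3a1, Col3a1-205 (737 bases) and the retained-intron transcript Col3a1-207 (431 bases) held 10.1% and 7.73% and 9.04% and 7.05% of the TPM, beside 79.8% and 84.6% in the leading transcript. In the reads-based table Col3a1-207 was listed at 0 in both libraries and Col3a1-205 held 31.9% and 33.2%. Col1a1 had almost none of this, with 98.9% and 99.4% of its TPM in Col1a1-201. Whether the short transcripts exist as separate molecules was not tested.

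Over the 22 detected genes, the leading transcript held a median of 81.8% of gene TPM in replicate 1 and 79.6% in replicate 2, and 93.8% and 94.7% of gene counts. Protein-coding transcripts together held a median of 98.1% and 99.2% of TPM. Col16a1 stood apart: its leading transcript held 17.3% and 9.93% of TPM and all its protein-coding transcripts 49.1% and 27.2%, and Col16a1-209, annotated for nonsense-mediated decay, held 13.3% and 31.2%. Col14a1 was divided between Col14a1-201 with 53.8% and 46.1% and Col14a1-203 with 23.6% and 37.4%. Col18a1 was divided over 3 long forms, led by Col18a1-202 with 55.3% and 47.8%. Col4a5 went from 83.9% in Col4a5-202 in replicate 1 to 17.9% in replicate 2, where Col4a5-201 held 67.2%. In the reads-based table Col4a5-202 held 75.2% in replicate 2, so the turn in Col4a5 was not shared by both quantifications. The leading transcript of Col2a1 held 53.3% and 36.5% of TPM, and 98.5% and 0.141% in the reads-based table. Retained-intron transcripts of Col2a1 held 5.83% and 29.9%.

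**Figure D4:**
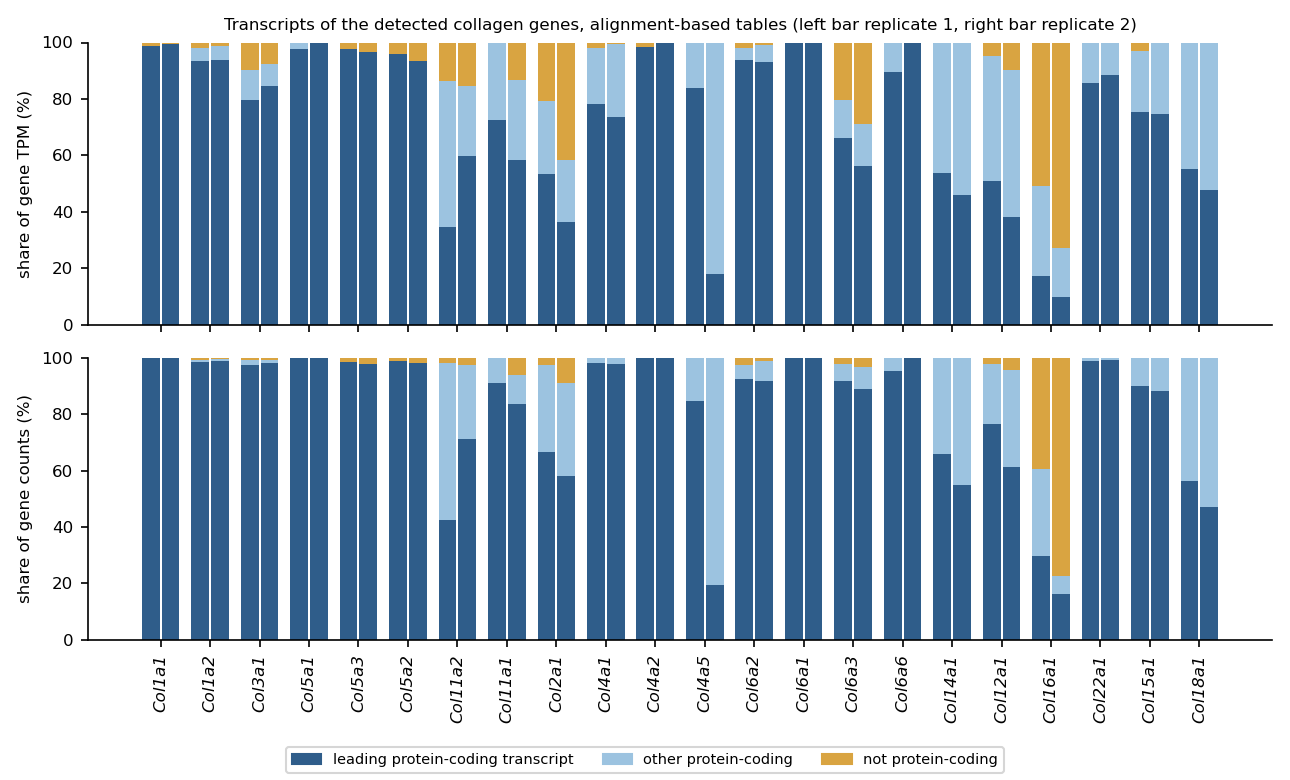
Share of gene TPM (top) and of gene counts (bottom), in percent, held by the leading protein-coding transcript, other protein-coding transcripts and transcripts that are not protein-coding, for the 22 detected collagen genes, with replicate 1 as the left and replicate 2 as the right bar of each pair. The leading transcript of most genes fills the count bars (medians of 93.8% and 94.7%), Col16a1 is mostly not protein-coding in TPM, and the leading share of Col4a5 drops from 83.9% to 17.9%.

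Differences between the libraries were measured on expected counts scaled by trimmed mean of M-values (TMM), as a log2 ratio of replicate 2 over replicate 1 with a prior count of 0.5. At a mean count of 100 or more there were 26 collagen genes, of which 1 was past 2-fold higher in replicate 2, where 2.11% of 9996 genes were, and 2 were past 2-fold lower, where 1.21% were. Their median log2 ratio was -0.02, beside -0.01 for all 9996 genes, with 12 higher and 14 lower. Within 0.5 of 0 lay 19 of the 26 (73.1%), against 87.9% of all genes. The 95% counting interval lay above 0 for 8 of the 26, where 24.4% of all 9996 genes did, and below 0 for 9, where 24.3% did, and these intervals cover counting error only. Scaled to the spike-in total, the median of all genes moved up by 0.38, and the median of collagen genes was then 0.36.

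The gene past 2-fold higher in replicate 2 was Col8a1, 2.18-fold (95% counting interval 1.74 to 2.75). Its partner Col8a2 was 2.29-fold higher (1.63 to 3.26) but had a mean count of 83, under the minimum. Past 2-fold lower were Col19a1, 2.41-fold higher in replicate 1 (1.83 to 3.21), and Col4a5, 2.03-fold higher in replicate 1 (1.74 to 2.37). All 3 intervals reach below 2-fold. Col8a1 stayed past 2-fold under each scaling, in TPM and in the reads-based table. Col4a5 fell short of 2-fold in TPM, in the reads-based table and under spike-in scaling (log2 ratios of -0.89, -0.99 and -0.63), and Col19a1 under spike-in scaling (-0.88). Next below 2-fold came Col11a1 with a log2 ratio of 0.72 and Col12a1 with 0.70 upward, and Col4a3 with -0.63 and Col4a4 with -0.59 downward, and the counting interval of each ended short of 2-fold. Col22a1 was 1.35-fold higher in replicate 1 (1.25 to 1.46). The 3 highest genes moved little, by 0.18 for Col1a1, 0.30 for Col1a2 and -0.10 for Col3a1 on the log2 scale.

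By class, all 5 type IV genes tested were lower in replicate 2, with a median log2 ratio of -0.59, and each counting interval lay below 0. That median reflects the low genes Col4a3, Col4a4 and Col4a5, at -0.63, -0.59 and -1.02. Col4a1 and Col4a2, which hold most of the type IV TPM, moved little, by -0.20 and -0.08. Scaled to the spike-in total, Col4a1 and Col4a2 turned to 0.19 and 0.30, and Col4a3, Col4a4 and Col4a5 remained below 0 at -0.24, -0.21 and -0.63. The 9 fibrillar genes had a median of 0.06 with 5 higher and 4 lower, the 4 type VI genes 0.06 with 2 and 2, and the 4 fibril-associated genes 0.20 with 3 and 1. Schwann and nerve sheath markers moved downward with the type IV genes, 5 of 5 tested past 2-fold lower, with Mbp, a myelin protein, at 39.3 and 7.57 TPM. Fat cell markers did too, 6 of 7 tested past 2-fold lower, with Cfd at 158 and 18.7 TPM and Pck1 at 24.5 and 1.11 TPM. Endothelial markers had a median of 0.11, with 9 of 10 higher in replicate 2. The part of these cells in the type IV values was not tested.

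Tendon markers were higher in replicate 2, as were Col11a1 (log2 ratio 0.72), Col12a1 (0.70) and, by less, Col1a1 (0.18) and Col1a2 (0.30). Other collagens of tendon or fibrils did not move alike: Col14a1 stood at 0.06, Col5a1 at 0.06, Col5a2 at -0.04 and Col3a1 at -0.10. All 9 tendon markers tested were higher in replicate 2, with a median log2 ratio of 0.70. Among them were Tnmd, a tendon cell membrane protein, at 5.04 and 8.11 TPM, and Thbs4 at 22.7 and 34.3 TPM. Fmod stood at 27.7 and 34.1 TPM and Chad, past 2-fold, at 2.78 and 6.37 TPM. Chad and Comp stand on both the tendon and the cartilage list. Slow fibre markers were past 2-fold higher in 8 of 8, with Myh7, slow myosin, at 0.24 and 472 TPM. Their part in the collagen values was not tested. Col22a1 was lower in replicate 2 beside these markers. Muscle fibre markers were lower in 6 of 8, with a median of -0.34, and neuromuscular junction markers had a median of -0.06.

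**Figure D5:**
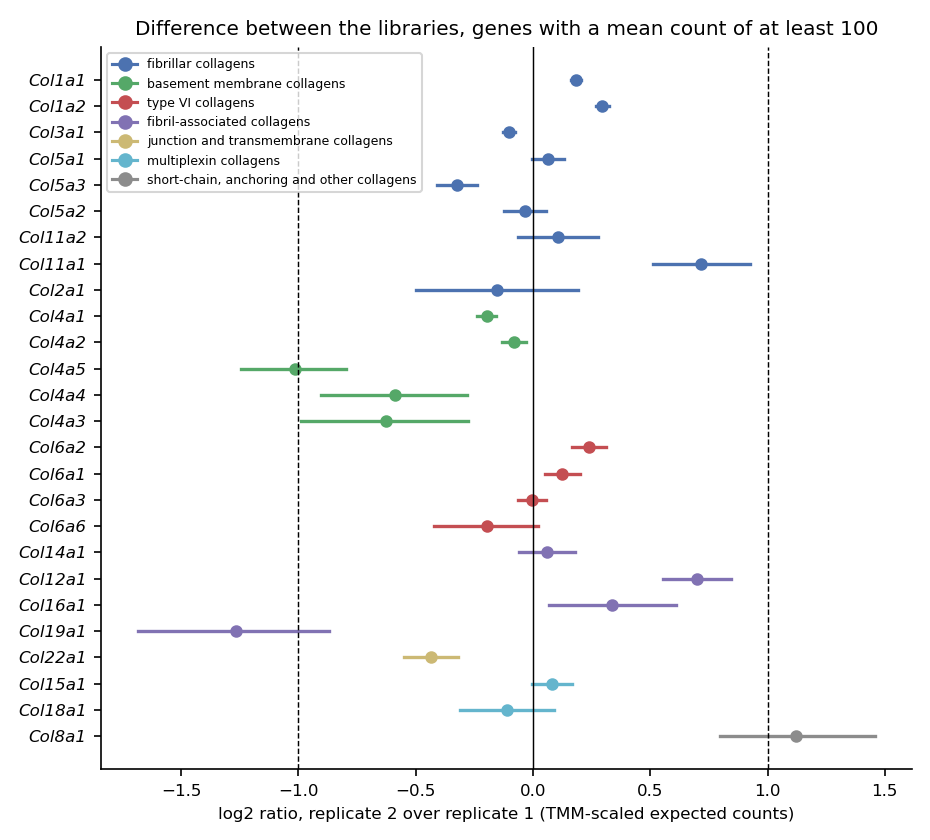
Log2 ratio of replicate 2 over replicate 1 (points) with its exact 95% counting interval (lines) for the 26 collagen genes whose mean count was 100 or more, coloured by class; the solid line is no difference and dashed lines are 2-fold. Col8a1 lies past 2-fold upward, Col19a1 and Col4a5 past 2-fold downward, all 5 type IV genes lie below 0, and Col1a1, Col1a2 and Col3a1 lie within 0.3 of 0.

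Collagen chains need a set of enzymes and partners before and after they leave the cell, and 71 such genes on 7 lists were read in the same way. Of these 51 were detected, where 45.4% of all protein-coding genes were. A mean count of 100 or more was also reached by 51, not all the same: P3h2 was not detected and Loxl3 fell under 100. These 51 had a median log2 ratio of 0.01. Of them 2 were past 2-fold higher in replicate 2, where 2.11% of 9996 genes were, and 0 past 2-fold lower, where 1.21% were. The 2 were P3h2, a prolyl 3-hydroxylase of basement membrane collagen, at 0.89 and 2.03 TPM, and Ccn2, a matrix growth factor induced by mechanical load, at 5.39 and 11.6 TPM.

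Among the genes of prolyl and lysyl modification, 10 of 15 were detected, led by P4hb, a subunit of prolyl 4-hydroxylase and a disulfide isomerase, at 84.8 and 79.7 TPM, with Ppib at 17.8 and 19.4 TPM and the collagen galactosyltransferase Colgalt1 at 17.2 and 13.9 TPM. All 9 folding and export genes were detected. Sparc, a collagen-binding matrix protein, stood at 233 and 224 TPM, at the level of Col1a1. Mia3, which loads collagen for export, stood at 62.2 and 59.2 TPM, and Serpinh1, the collagen chaperone, at 26.9 and 27.2 TPM. The Mia3 TPM rested on 2039 and 2109 counts, beside 2378 and 2140 counts for Sec23a at 22.4 and 20.1 TPM. Which Mia3 transcripts carried its TPM was not tested.

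Of 8 procollagen processing genes 4 were detected, with Pcolce, the enhancer of C-propeptide removal, at 18.8 and 22.4 TPM, the proteinase Bmp1 at 4.90 and 5.31 TPM and the N-proteinase Adamts2 at 4.57 and 4.09 TPM. The crosslinking enzymes were low beside their substrates: Loxl2 stood at 5.99 and 7.45 TPM, Loxl1 at 4.47 and 5.61 TPM and Lox at 5.50 and 3.83 TPM. Lox was higher in replicate 1 and the other two in replicate 2. Of 10 breakdown and uptake genes 6 were detected, led by the proteinase inhibitor Timp2 at 31.9 and 29.0 TPM, the gelatinase Mmp2 at 23.7 and 23.9 TPM and the inhibitor Timp3 at 23.6 and 20.3 TPM.

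Of 12 collagen receptors 8 were detected. Itgb1, the beta chain shared by the collagen-binding integrins, stood at 68.3 and 61.7 TPM, Adgrg1, an adhesion receptor that binds type III collagen, at 7.71 and 8.21 TPM and Ddr2, a receptor kinase for fibrillar collagen, at 6.80 and 6.99 TPM. Of 12 regulators of collagen genes 10 were detected, led by Smad3 at 20.0 and 18.2 TPM, Tgfb3 at 11.6 and 12.2 TPM and Sp1, whose known motif is GGGCGG, at 9.36 and 8.95 TPM.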

How the data were processed

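The data were total RNA libraries of 1 group with 2 replicates. The authors deposited expected counts per gene and estimated counts per transcript, which are not normalised, from alignments to the transcriptome and, in a second table, directly from the reads. The authors' deposited TPM has the same total in every library, spike-in rows included. Per the file headers the gene table also gives a posterior SD of each count, a score used only to find reads shared between genes, which was above 0 for 3 collagen genes, at most 9.49. Genome mm10 and annotation GENCODE M21 are named in the deposited descriptions. The program that made the counts is not given in the sources used here, nor is its use of strand. Alignment of castaneus alleles to mm10 was not tested.

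The 44 genes, 7 lists of companion genes and 13 marker lists were chosen with earlier results of these data known. Spike-in rows (97) and tRNA rows (26248) were left out of scaling. Counts were rounded for edgeR 4.0.16 (TMM) and DESeq2 1.42.0 (size factors as an alternative) under R 4.3.3, and ratios, intervals and figures were made in Python 3.11.15 (pandas 2.3.3, numpy 2.4.6, scipy 1.17.1, matplotlib 3.10.9). With 1 group no test was made. A difference past 2-fold at a mean count of at least 100 was counted and set beside the same count over all 9996 such genes. edgeR put the common coefficient of variation between the libraries at 0.220 over 14263 genes. Counting intervals are exact (Clopper-Pearson, 95%), a count of 0 allows up to 3 counts, and neither allows for amplification, since no molecular identifiers are described, so they cover counting error only.

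Genes were named by a rule: collagen genes detected or with at least 10 counts in a library, those past 2-fold, and of each list the 3 highest and those past 2-fold; of the marker lists only the genes a result turns on are given. Col9a2, Col9a3, Col6a4, Col10a1, Col17a1, Acan, Hapln1, Sp7, Krt14, Tnmd and the markers listed at 0 lie outside the rule and were chosen once values were known. The scripts were tested on simulated data. Alternatives covered detection thresholds, units, scaling, filters, prior count, the counts made directly from reads, and leaving out either library.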

Additional observations from a re-analysis of the deposited data

How the results depend on the processing

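The number of collagen genes detected was 22. It was 13 at 5 TPM (26.7% of all protein-coding genes passed), 37 at 10 expected counts in both libraries (57.3%), 29 at 0.5 TPM (50.6%), 25 in the reads-based table (48.8%), and 23 to 25 with 1 library left out. The fibrillar share of collagen TPM was 71.8% in the reads-based table, and 75.6% and 75.2% with leading transcripts only, an alternative chosen after seeing the data. The mean Col1a1 to Col1a2 ratio of 1.44 became 1.67 in counts without length, 1.18 in the reads-based table and 1.53 with leading transcripts. Col4a1 to Col4a2, 1.90, became 1.52, 2.47 and 1.45, and 1.496 with leading reads-based transcripts. Col6a1 to Col6a2 became 1.04 with leading transcripts.

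Collagen genes past 2-fold higher in replicate 2 numbered 1, and 3 under spike-in scaling (5.19% of all genes), 2 at a mean count of at least 10 (4.69%), 3 without a filter (15.6%) and 3 at 1.5-fold (5.77%). Those lower numbered 2, and 0 under spike-in scaling (0.660% of all genes), where Col19a1 and Col4a5 fell short, 1 in TPM (1.30%) and 1 in the reads-based table (1.19%), where Col4a5 fell short, and 4 at 1.5-fold (3.23%). Under spike-in scaling the median log2 ratio was 0.36 for collagen genes and 0.39 for companion genes, of which 4 passed 2-fold upward. Without a filter 4 companion genes passed upward and 1 downward. The median of the short-chain class, 1.12 from Col8a1 alone, became -0.26 at a mean count of at least 10, -0.26 without a filter and -0.17 in the reads-based table, where more genes enter. The median share of TPM in the leading transcript, 79.1%, was 73.8% in the reads-based table and 79.6% to 81.8% with 1 library left out.

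Of 39 collagen genes, 38 kept the sign of their log2 ratio under DESeq2 size factors, 36 in the reads-based table and 27 under spike-in scaling. Depth limits the low genes: 18 of 44 had a mean count under 100 and 5 had under 10 counts in both libraries. No paired analysis was possible because there is 1 group.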

Other observations

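Col24a1, a fibrillar collagen of developing bone, moved in opposite directions by unit. Its counts were 80 and 119, higher in replicate 2, and its TPM was 0.85 and 0.52, higher in replicate 1. In replicate 1 the transcript Col24a1-203, of 330 bases, held 4.08% of the counts and 54.1% of the TPM, and in replicate 2 it was listed at 0. The leading transcript Col24a1-201 stood at 0.35 and 0.52 TPM. The reads-based table gave 0.564 and 0.720 TPM for the gene.

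The reads-based table put collagen genes above the gene table in most cases, by a log2 difference of 0.46 and 0.36 for Col1a1 and of 1.08 and 0.73 for Col4a1. Over detected protein-coding genes the median difference was 0.62 and 0.51. Col8a1, Col26a1 and Col7a1 reached 1 TPM in both libraries in that table only.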
